A study of Mus musculus with 6 samples.

Results

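*Pdpn*, *Phex*, *Sost* and *Fgf23*, genes that mark the change of an osteoblast (OB) into an osteocyte, were followed in ECFP+ OBs sorted from bone that BMP-2 had induced under the skin of mice. They were taken by their symbols, and all 4 were found among the 23284 genes listed. The samples were 3 of day 10 and 3 of day 14 after implantation of a collagen sponge with 2.5 μg of BMP-2. All mice were male *Col2.3*-ECFP mice aged 12 to 16 weeks, in which cyan fluorescence is driven by a fragment of the type I collagen promoter, and both groups carried the transgene and the implant. The sort therefore selected cells by the activity of a collagen promoter and not by an osteocyte marker. Cells were released with 0.25% trypsin and then 0.2% collagenase II, with 1 collagenase step for day 10 samples and 2 for day 14 samples. The day and the number of steps cannot be told apart. CD45+ and dead cells were gated out. The titles place the later samples on day 14, whereas their descriptions give day 14, 15 and 16 for replicates 1, 2 and 3, and the titles were used. The labels call the samples biological replicates, and the number of mice behind each is not given in the sources used here.

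Osteocytes are the cells that OBs become when they are buried in the matrix they make. *Pdpn* (also called E11) encodes podoplanin, a membrane glycoprotein that appears early, when the cell extends its dendrites. *Phex*, an X-linked gene, encodes a membrane endopeptidase of OBs and osteocytes whose loss raises FGF23 and causes X-linked hypophosphatemia. *Sost* and *Fgf23* are genes of the mature osteocyte. Sclerostin, the product of *Sost*, binds LRP5 and LRP6 and restrains Wnt signaling, and FGF23 is the hormone through which bone lowers phosphate reabsorption in the kidney.

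The values were FPKM, reads scaled to the length of the transcript and to the depth of the library, so that levels can be set side by side between genes. The depth was estimated from the steps between low FPKM values at 4556921 to 7788491 reads per sample, where 3 reads on 1 kilobase amount to 0.385 to 0.658 FPKM. All 7 OB markers of the study were above 0 in every sample, and their summed level was 28400 to 54200 FPKM on day 10 and 15700 to 38300 FPKM on day 14. Replicate 2 of day 14 stood apart from the other samples of its day. Its 10 chondrocyte markers summed to 953 FPKM against 63.0 and 60.2 FPKM in replicates 1 and 3, and to 314 to 548 FPKM on day 10. Its 10 myeloid markers had the lowest sum of the 6 samples, at 20.4 FPKM. Results are therefore also given without it. In bulk samples, fewer cells of a type and less RNA per cell cannot be told apart.

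The 4 genes spanned levels from abundant to near the limit of detection. *Pdpn* was the highest of them and *Phex* the second in each of the 6 samples, and the ranges of these neighbours did not meet. *Sost* and *Fgf23* reached at most 1.24 FPKM and exchanged places from sample to sample, *Sost* being the higher in 4 of the 6, so that this pair did not differ in level beyond its spread. Among all genes listed, *Pdpn* ranked 807 by its mean FPKM on day 10 and 561 on day 14. *Phex* ranked 2771 and 6490, *Sost* 11829 and 15206, and *Fgf23* 16312 and 14285. Between the days, *Pdpn* had the higher mean on day 14 and *Phex* the lower. Neither difference passed the test over all genes. Of the 4 genes, 0 reached an adjusted p under 0.05 (limma on log2(FPKM + 0.1), Benjamini-Hochberg over 19526 genes), where 0.0154% of all genes tested had one. At an unadjusted p under 0.05, 1 of the 4 was higher and 1 lower on day 14, against 5.60% of all genes tested that were higher and 4.40% that were lower. In none of the 4 were all day 14 samples above or all below the day 10 samples, where 7.59% and 6.67% of all genes tested were so separated. Without replicate 2 of day 14, 1 of the 4 lay wholly higher (*Pdpn*) and 1 wholly lower (*Phex*), against 15.3% and 13.2% of all genes tested, and both had an unadjusted p under 0.05, against 7.01% higher and 5.99% lower. Still 0 of the 4 had an adjusted p under 0.05 from limma then, while 0.386% of all genes tested did. With all samples, the median log2 fold change was −0.22 over the 4 genes and −0.043 over all genes tested.

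**Figure D1:**
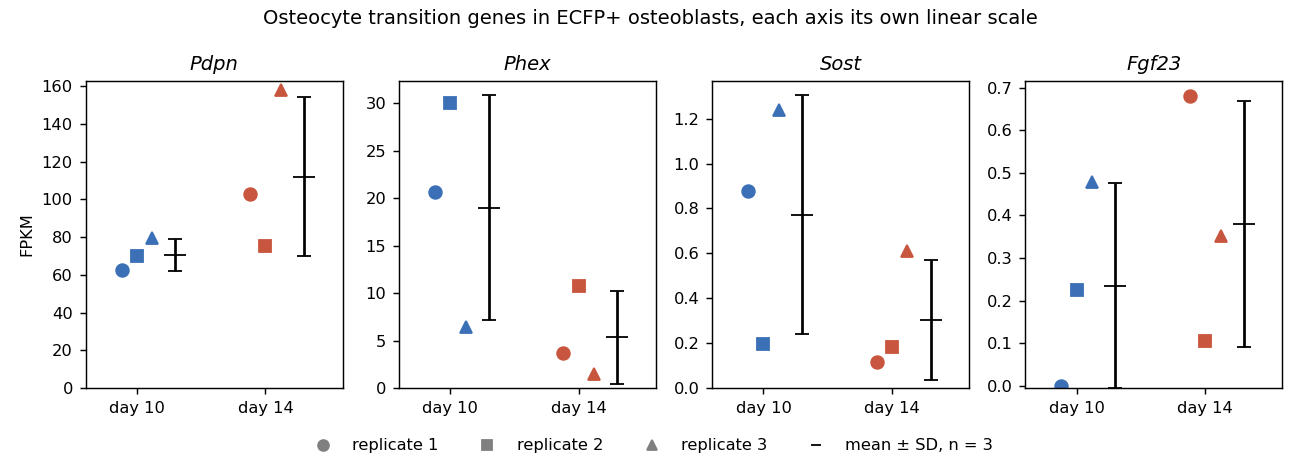
FPKM (vertical axis, a linear scale of its own for each gene) of *Pdpn*, *Phex*, *Sost* and *Fgf23* on day 10 and day 14; symbols are the 3 replicates of each day, and black bars are the mean ± SD. The samples of the days overlap for each gene, with *Pdpn* between 62.6 and 158 FPKM and *Fgf23* between 0 and 0.681 FPKM.

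*Pdpn*, the early gene, lies on chromosome 4 of mm10 from 143267431 to 143299564 on the minus strand, with 6 exons in its longest transcript. Replicates 1, 2 and 3 of day 10 had 62.6, 70.2 and 79.6 FPKM, and those of day 14 had 103, 75.5 and 158 FPKM. The day 10 samples lay close together, and 2 of the 3 day 14 samples were above all of them, while replicate 2 of day 14 lay inside their range. The day 10 mean was 70.8 ± 8.5 FPKM (SD, n = 3), and the day 14 mean was 112 ± 42.2 FPKM (SD, n = 3). The log2 fold change was 0.61 (standard error 0.26, 95% interval 0.01 to 1.20, limma adjusted p = 0.491). The two-sided exact permutation test gave p = 0.2, where 0.1 is the smallest p that 3 samples against 3 allow. Without replicate 2 of day 14 the days no longer overlapped, and the log2 fold change was 0.86 (limma adjusted p = 0.155). Without replicate 3 of day 14 it was 0.33 (limma adjusted p = 0.834). The values rested on an estimated 490.6 to 1789 reads per sample.

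Podoplanin is also made outside the OB lineage, by lymphatic endothelium and by fibroblasts. The 5 lymphatic endothelial markers (*Prox1*, *Lyve1*, *Flt4*, *Ccl21a*, *Mmrn1*) summed to at most 1.31 FPKM on day 10 and 1.85 FPKM on day 14, with none above 1 FPKM in any sample. *Ccl21a* was listed at 0 in 5 of the 6 samples. The 6 fibroblast markers (*Pdgfra*, *Pi16*, *Dpp4*, *Cd34*, *Clec3b*, *Dpt*) summed to 79.5, 95.5 and 161 FPKM on day 10 and to 170, 109 and 431 FPKM on day 14. This sum put the 6 samples in the same order as *Pdpn* did, with replicate 3 of day 14 highest and replicate 1 of day 10 lowest. All 6 were detected in every sample, and *Cd34* had an unadjusted p under 0.05 with a log2 fold change of 1.17 (limma adjusted p = 0.495). *Cd34* alone also put the samples in the order of *Pdpn*, and each other fibroblast marker gave another order. *Pdgfra* had a log2 fold change of −0.02 (limma adjusted p = 0.994), with 35.1, 33.8 and 30.2 FPKM on day 10 against 33.3, 20.4 and 51.0 on day 14. The part of the fibroblast genes in the *Pdpn* values was not tested. Among the genes with profiles nearest to that of *Pdpn* over the 6 samples were *Ehd2*, an ATPase of caveolae, and *Ets2*, a transcription factor. Their root mean square distances from *Pdpn* were 0.0827 and 0.0907 on the log2 scale, among 11161 genes with a mean of at least 1 FPKM.

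*Phex* lies on the X chromosome of mm10 from 157162075 to 157415312 on the minus strand, with 22 exons in its longest transcript, and 3 other genes annotated within its span share no exonic base with it. It had 20.6, 30.0 and 6.48 FPKM on day 10 against 3.75, 10.8 and 1.49 on day 14. Replicate 3 of day 10 and replicate 2 of day 14 lay on the side of the other day, and the days overlapped through this pair alone. The day 10 mean was 19 ± 11.8 FPKM (SD, n = 3), and the day 14 mean was 5.36 ± 4.88 FPKM (SD, n = 3). The log2 fold change was −1.98 (standard error 0.74, 95% interval −3.66 to −0.29, limma adjusted p = 0.432), which leaves 0.254 of the level of FPKM + 0.1 on day 10. The two-sided exact permutation test gave p = 0.2. Without replicate 2 of day 14 the log2 fold change was −2.69 (limma adjusted p = 0.130), with every remaining day 14 sample below day 10, and without replicate 3 of day 14 it was −1.30 (limma adjusted p = 0.775). The spread within a day was wide, since the highest sample was 4.63 times the lowest on day 10 and 7.26 times the lowest on day 14. An estimated 63.8 to 994.5 reads per sample lay behind these values.

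Of 11161 genes, *Dmp1* had the profile nearest to that of *Phex* over the 6 samples, at a distance of 0.319 on the log2 scale. *Dmp1* encodes an acidic matrix phosphoprotein of OBs and osteocytes, and its loss, like that of *Phex*, raises FGF23. It had 780, 949 and 168 FPKM on day 10 against 158, 423 and 36.1 on day 14, so that both genes put the 6 samples in the same order. *Dmp1* was between 24.1 and 42.2 times *Phex* in each sample, while *Phex* itself varied 20.1-fold and *Dmp1* 26.3-fold over the samples. At −1.89 its log2 fold change (standard error 0.91, limma adjusted p = 0.541) was close to that of *Phex*. The next genes were *Cdh15*, which encodes M-cadherin, at a distance of 0.330, and *Slc36a2*, which encodes an amino acid transporter, at 0.335. *Col1a1*, which encodes a chain of type I collagen and whose promoter drives the reporter, also put the samples in this order. The 3 samples with the lowest *Phex* were those with the lowest summed OB markers, and the part of the OB markers in the *Phex* values was not tested.

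**Figure D2:**
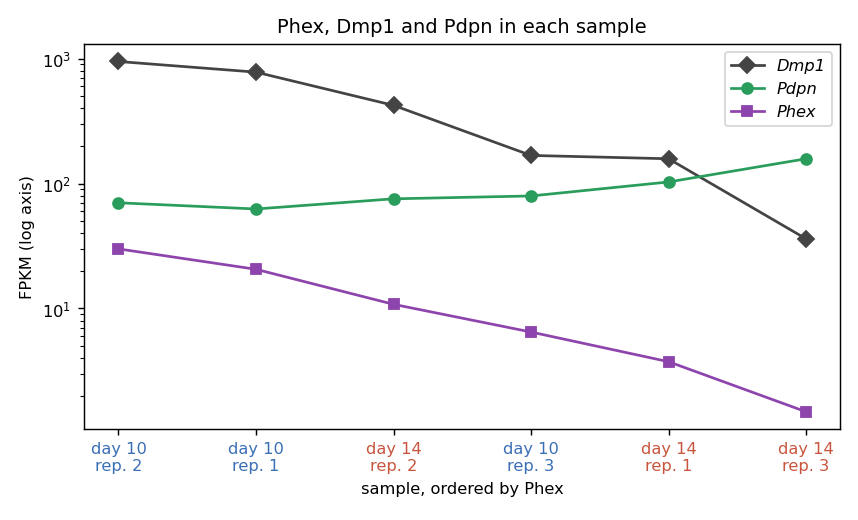
FPKM (vertical log axis) of *Dmp1*, *Pdpn* and *Phex* in the 6 samples, ordered from the highest to the lowest *Phex*; lines join the values of a gene. *Dmp1* runs from 949 to 36.1 FPKM beside *Phex*, while *Pdpn* stays between 62.6 and 158 FPKM and is highest where *Phex* is lowest.

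The promoters of *Pdpn*, *Phex* and *Dmp1* are shown because these genes carry the contrast above, 1 gene near its highest level where the other 2 were lowest. Each run holds 250 bases before and 50 bases after a transcription start, from RefSeq on GRCm38 (mm10), 5′ to 3′ on the strand of the gene. Capitals mark GGGCGG or its complement CCGCCC (the GC box), TGTGGT or ACCACA (the Runx motif), TGANTCA (the AP-1 motif) and CANNTG (the E-box). The windows are chr4:143299515-143299814 on the minus strand for *Pdpn*, chrX:157415237-157415536 on the minus strand for *Phex* and chr5:104202367-104202666 on the plus strand for *Dmp1*.
Pdpn: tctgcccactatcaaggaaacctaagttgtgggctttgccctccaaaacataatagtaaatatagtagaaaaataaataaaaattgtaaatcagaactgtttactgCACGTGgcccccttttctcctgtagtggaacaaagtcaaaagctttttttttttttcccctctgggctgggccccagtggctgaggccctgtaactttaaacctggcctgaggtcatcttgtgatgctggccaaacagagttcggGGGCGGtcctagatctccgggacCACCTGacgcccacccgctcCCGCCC
Phex: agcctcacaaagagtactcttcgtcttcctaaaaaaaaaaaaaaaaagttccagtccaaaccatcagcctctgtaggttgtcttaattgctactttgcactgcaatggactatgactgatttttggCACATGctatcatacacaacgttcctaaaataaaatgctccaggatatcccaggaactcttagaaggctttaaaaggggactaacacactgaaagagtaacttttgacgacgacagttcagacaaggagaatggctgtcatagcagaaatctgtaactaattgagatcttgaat
Dmp1: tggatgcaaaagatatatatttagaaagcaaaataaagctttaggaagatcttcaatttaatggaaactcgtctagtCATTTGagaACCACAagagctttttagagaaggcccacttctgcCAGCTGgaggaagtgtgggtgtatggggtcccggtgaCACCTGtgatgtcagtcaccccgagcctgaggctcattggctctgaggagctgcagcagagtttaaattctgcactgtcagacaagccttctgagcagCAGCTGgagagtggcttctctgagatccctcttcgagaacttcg
The *Pdpn* window held 2 GC boxes, at positions 2 and 45 counted from the start, and the windows of *Phex* and *Dmp1* held none. A GC box stood in 35.7% of all 32851 promoter windows of 300 bases. The Runx motif stood 1 time in the *Dmp1* window, at position −164, and in 16.8% of all windows, and it was not in the other 2. Neither these windows nor those of *Sost* and *Fgf23* held the AP-1 motif, which 7.81% of all windows did. E-boxes stood 2 times in the *Pdpn* window, 1 time in that of *Phex* and 4 times in that of *Dmp1*, and in 72.3% of all windows. These matches describe the letters of the windows, and nothing bound to them was measured.

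The distance between *Pdpn* and *Phex* was also measured within each sample, where the scaling of a library nearly cancels. *Pdpn* was 3.03, 2.34 and 12.3 times *Phex* on day 10 and 27.5, 6.96 and 106 times *Phex* on day 14. The ratio was thus widest in replicate 3 of day 14, and replicate 2 of day 14 fell among the day 10 samples. As log2 of the ratio of *Phex* to *Pdpn* with 0.1 added to each, the day 10 mean was −2.14 ± 1.28 (SD, n = 3) and that of day 14 −4.72 ± 1.92 (SD, n = 3). The difference of −2.58 had p = 0.2 (two-sided exact permutation test) and an adjusted p of 0.25 over the 5 ratios compared. The ratio of *Dmp1* to *Pdpn* differed by −2.50 (exact permutation p = 0.2, adjusted p = 0.25). The ratio of *Phex* to *Dmp1* had a day 10 mean of −4.96 ± 0.279 (SD, n = 3) and a day 14 mean of −5.05 ± 0.472 (SD, n = 3), and the difference, −0.08, was smaller than either SD (exact permutation p = 0.8, adjusted p = 0.8). Its sign turned with the pseudocount and with the sample left out. Against *Col1a1*, the log2 ratio of *Pdpn* differed by 1.20 and that of *Phex* by −1.38, each with p = 0.2 (exact permutation test, adjusted p = 0.25). *Pdpn* and *Phex* were therefore on opposite sides of *Col1a1* in their mean difference, with overlapping days for both.

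*Sost*, on chromosome 11 of mm10 from 101962458 to 101967015 on the minus strand, is a short gene of 2 exons with 1 annotated transcript. It had 0.878, 0.196 and 1.24 FPKM on day 10 against 0.118, 0.181 and 0.609 on day 14. These values came out at an estimated 8, 2 and 18 reads on day 10 and 1, 2 and 8 reads on day 14, each within 0.1 of a whole number. The depth was set so that low values of genes with 1 annotated transcript fall near whole reads, so this closeness is partly built in. Scaled to depth, the 28 reads of day 10 make 1.54 RPM (95% exact Poisson interval 1.02 to 2.23), and the 11 reads of day 14 make 0.626 RPM (0.313 to 1.12). These intervals cover counting error only and not the spread of the replicates. They overlap, which is not a test of the difference between the days. The log2 fold change was −1.05 (standard error 0.76, 95% interval −2.80 to 0.70, limma adjusted p = 0.715; two-sided exact permutation p = 0.2). With a pseudocount of 1 the fitted change was −0.42. Replicates of 1 day differed by up to 6.36-fold, more than the day means. The samples took another order by *Sost* than by *Phex* and *Dmp1*, and replicate 2 of day 10, the highest sample for both, was the fourth for *Sost*.

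*Fgf23*, on chromosome 6 of mm10 from 127072902 to 127081408 on the plus strand, has 3 exons and 1 annotated transcript. It had 0, 0.226 and 0.479 FPKM on day 10 against 0.681, 0.105 and 0.352 on day 14. The estimated reads were 0, 2 and 6 on day 10 and 5, 1 and 4 on day 14. The 0 of replicate 1 of day 10 allows a level of up to 0.384 FPKM, that of 3 reads. Over a day, 8 reads or 0.440 RPM (95% exact Poisson interval 0.190 to 0.867) stood against 10 reads or 0.569 RPM (0.273 to 1.05). The log2 fold change was 0.65 (standard error 0.86, 95% interval −1.32 to 2.61, limma adjusted p = 0.867; two-sided exact permutation p = 0.6). A difference between the days was not detectable at this depth, and the fitted change was −0.06 without replicate 1 of day 10, 0.16 with a pseudocount of 1 and 1.55 with a pseudocount of 0.01. Both mature osteocyte genes thus had at least 1 estimated read in at least 5 of the 6 samples, and at most 18. *Sost* was at 1 or 2 reads, below the level of 3 reads, in replicate 2 of day 10 and replicates 1 and 2 of day 14. *Fgf23* was at 0 to 2 reads in replicates 1 and 2 of day 10 and replicate 2 of day 14.

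**Figure D3:**
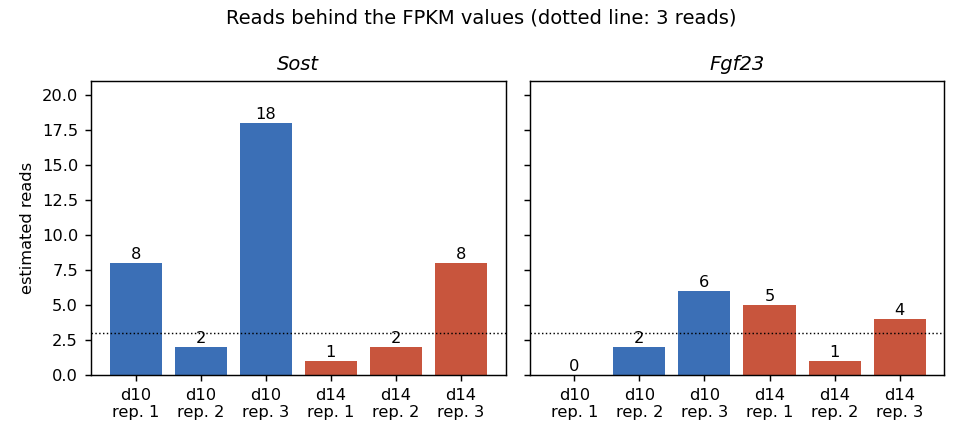
Estimated reads (vertical axis) behind the FPKM values of *Sost* and *Fgf23* in each sample, with bars from 0, day 10 in blue and day 14 in red; the dotted line marks 3 reads. *Sost* has 28 reads on day 10 and 11 on day 14, *Fgf23* has 8 and 10, and replicates of the same day differ widely.

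Other genes of the osteocyte were higher in part and lower in part on day 14. None of 8 (*Dmp1*, *Mepe*, *Gja1*, *Mmp14*, *Capg*, *Dstn*, *Irx5*, *Cd44*) had an adjusted p under 0.05 from limma. At an unadjusted p under 0.05, 1 was higher and 1 lower, where 5.60% of all genes tested were higher and 4.40% lower, and their median log2 fold change was −0.16. Without replicate 2 of day 14, 1 was higher and 3 were lower at that threshold, against 7.01% and 5.99% of all genes tested. *Capg*, which encodes an actin capping protein, had 96.1, 95.1 and 105 FPKM on day 10 against 141, 116 and 175 on day 14 (log2 fold change 0.52, limma adjusted p = 0.4). Its samples did not overlap, nor did those of *Mmp14*, a membrane matrix metalloproteinase (log2 fold change 0.39, limma adjusted p = 0.599), and 7.59% of all genes tested were separated in this direction. *Irx5*, a homeobox gene, had 28.5, 23.0 and 10.2 FPKM on day 10 against 8.07, 13.3 and 4.83 on day 14 (log2 fold change −1.22, limma adjusted p = 0.425). *Mepe*, a matrix phosphoglycoprotein of osteocytes that PHEX binds, had 4.29, 9.61 and 4.70 FPKM on day 10 against 2.22, 17.9 and 2.97 on day 14. Its highest sample was replicate 2 of day 14, and without that sample its log2 fold change went from −0.22 to −1.14 (limma adjusted p = 0.253).

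The 8 partners of podoplanin had a median log2 fold change of 0.19, and none had an adjusted p under 0.05 from limma. *Ezr*, which encodes ezrin and links podoplanin to the actin cortex, had 17.7, 16.6 and 18.9 FPKM on day 10 against 19.3, 27.4 and 47.8 on day 14. It was the single gene of the list with an unadjusted p under 0.05 and with separated days (log2 fold change 0.73, limma adjusted p = 0.465), against 5.60% and 7.59% of all genes tested. Without replicate 1 of day 14, 2 of the 8 were higher at that threshold, 5 were separated upwards and 1 downwards. Of all genes tested, 5.44% were then higher, 13.2% were separated upwards and 3566 of 18804 downwards. Leaving out replicate 2 of day 14 gave 0 higher and 1 separated upwards, against 7.01% and 15.3% of all genes tested. With any other sample left out, 0 of the 8 were higher at that threshold. *Msn* and *Rdx*, the other genes of the ezrin family, had log2 fold changes of 0.15 and 0.04. *Cd44*, a hyaluronan receptor that binds podoplanin, had 56.0, 83.4 and 74.6 FPKM on day 10 against 70.9, 112 and 160 on day 14 (log2 fold change 0.62, limma adjusted p = 0.535). *Rhoa*, a small GTPase of the actin cytoskeleton, had a log2 fold change of 0.23. *Clec1b*, the platelet receptor for podoplanin, stayed below 1 FPKM throughout.

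Among 15 genes that process FGF23, receive it or handle phosphate, none had an adjusted p under 0.05 from limma. At an unadjusted p under 0.05, 1 was higher and 1 lower, against 5.60% and 4.40% of all genes tested, and the median log2 fold change was −0.26. *Galnt3*, whose product glycosylates FGF23 and protects it from cleavage, had 10.9, 5.28 and 6.39 FPKM on day 10 against 2.70, 5.52 and 0.854 on day 14 (log2 fold change −1.56, limma adjusted p = 0.438). *Furin*, a protease that cleaves FGF23, had a log2 fold change of 0.20. *Fam20c*, the kinase that phosphorylates FGF23, had 46.4, 52.9 and 13.3 FPKM on day 10 against 14.5, 46.0 and 7.55 on day 14, with replicates 1 and 2 of day 14 within the range of the day 10 samples. *Slc20a1*, a phosphate transporter, had 10.1, 7.34 and 12 FPKM on day 10 against 13.2, 24.1 and 13.2 on day 14, without overlap (log2 fold change 0.75, limma adjusted p = 0.438). Of all genes tested, 7.59% were separated in this direction. *Enpp1*, which makes pyrophosphate, had a log2 fold change of 0.58 (limma adjusted p = 0.528). *Fgfr1* was the highest of the FGF receptor genes in each sample, at 117 to 167 FPKM. *Kl*, the klotho coreceptor that FGF23 needs in the kidney, stayed below 0.5 FPKM. *Fgfr3* had 18.3, 14.8 and 16.5 FPKM on day 10 against 3.92, 27.3 and 2.58 on day 14. Its highest sample, replicate 2 of day 14, also had the highest summed chondrocyte markers, and a link to those markers was not tested. With that sample dropped, the log2 fold change of *Fgfr3* went from −1.32 to −2.34 (limma adjusted p = 0.0194). An adjusted p under 0.05 from limma was then reached by 0.386% of all genes tested. The dropped sample had been singled out by its chondrocyte markers and held the highest *Fgfr3*, so the adjusted p of *Fgfr3* is not independent of that choice. In the same fit, 7 of the 15 had lower levels at an unadjusted p under 0.05, against 5.99% of all genes tested.

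Of 14 genes around sclerostin, 10 had negative log2 fold changes, as did 10441 of all 19526 genes tested. The median was −0.41, and none had an adjusted p under 0.05 from limma. At an unadjusted p under 0.05, 4 were lower and none higher, where 4.40% of all genes tested were lower. Leaving out replicate 2 of day 14 gave 6 lower and none higher, against 5.99% of all genes tested that were lower. *Dkk1*, which encodes another secreted Wnt inhibitor, had 7.85, 3.67 and 2.78 FPKM on day 10 against 1.62, 0.997 and 0.418 on day 14 (log2 fold change −2.16, standard error 0.53, limma adjusted p = 0.305). Every day 14 sample lay below every day 10 sample, replicate 2 of day 14 included. *Mef2c*, whose product drives *Sost* in osteocytes, had 55.7, 39.3 and 26.5 FPKM on day 10 against 15.1, 25.4 and 6.62 on day 14 (log2 fold change −1.49, limma adjusted p = 0.360). *Tcf7*, a transcription factor of the Wnt pathway, had 46.0, 28.4 and 18.5 FPKM on day 10 against 7.00, 17.3 and 2.51 on day 14 (log2 fold change −2.08, limma adjusted p = 0.347). Both were also separated between the days, and 6.67% of all genes tested were separated downwards. *Pth1r*, the receptor through which parathyroid hormone lowers *Sost*, had a log2 fold change of −1.21 (limma adjusted p = 0.480) with overlapping samples. *Lrp5* and *Lrp6*, the receptors that sclerostin binds, had log2 fold changes of −0.46 and 0.29, and *Lrp4*, which anchors sclerostin, of −1.04. *Lrp6* was separated upwards, with 3.43 to 3.56 FPKM on day 10 and 4.10 to 4.74 FPKM on day 14 (limma adjusted p = 0.710). Of all genes tested, 7.59% were separated upwards. *Axin2*, a common readout of Wnt signaling, stayed below 0.4 FPKM in each sample.

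**Figure D4:**
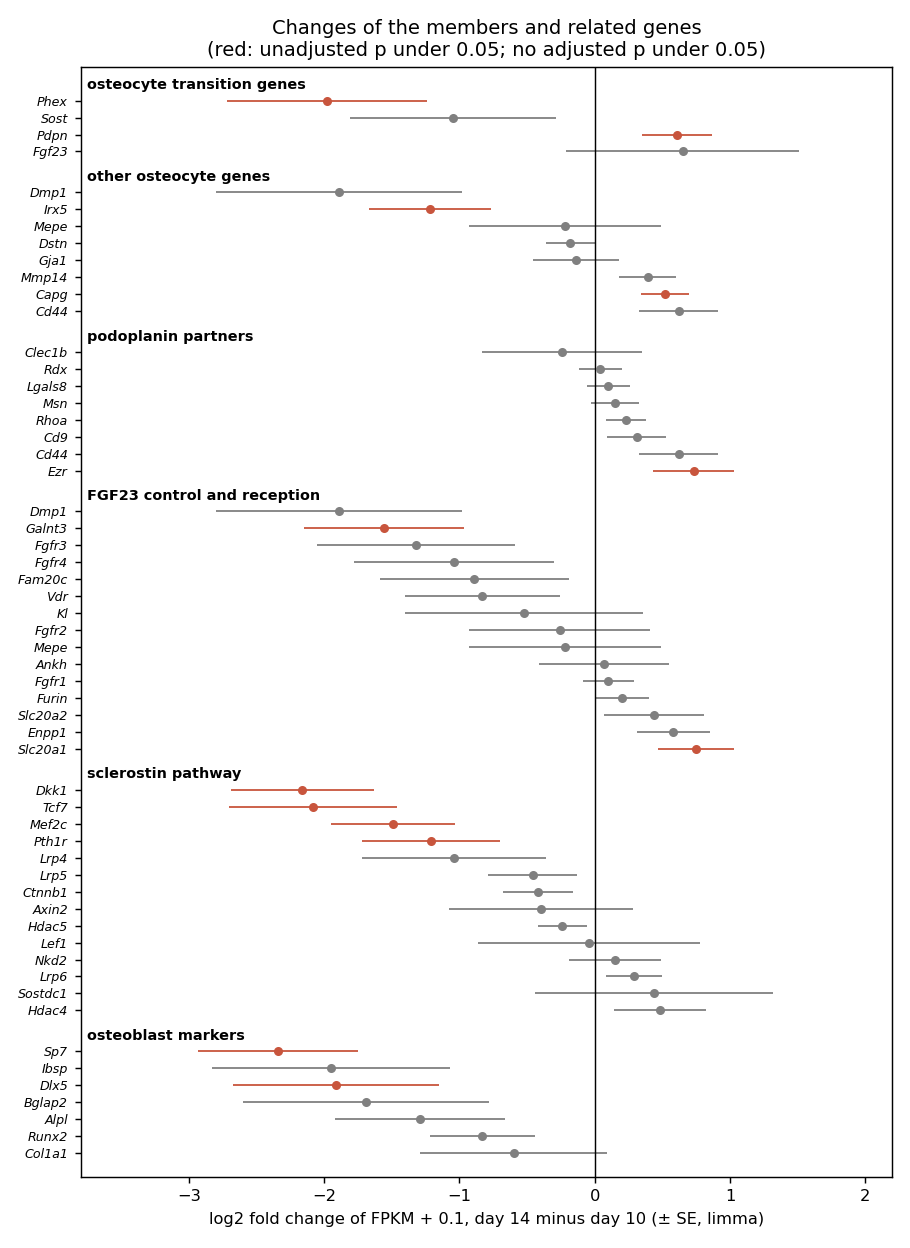
Log2 fold change of FPKM + 0.1 for day 14 over day 10 (horizontal axis, points ± standard error from limma) for the 4 genes, the related gene lists and the OB markers; red marks an unadjusted p under 0.05. *Phex* at −1.98 lies with *Dmp1* at −1.89 and *Pdpn* at 0.61 with *Cd44* at 0.62 and *Ezr* at 0.73, and no gene shown has an adjusted p under 0.05. The other podoplanin partners lie lower than *Pdpn*, from −0.24 for *Clec1b* to 0.31 for *Cd9*.

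All 7 OB markers had negative log2 fold changes, with a median of −1.69, and none reached an adjusted p under 0.05 from limma, while 2 were lower at an unadjusted p under 0.05, against 4.40% of all genes tested. *Sp7*, a transcription factor of OB differentiation, had 73.7, 51.1 and 40.1 FPKM on day 10 against 9.79, 27.9 and 4.09 on day 14 (log2 fold change −2.34, limma adjusted p = 0.309), the single marker without overlap. Of all genes tested, 6.67% were separated in this direction. *Col1a1* had 27400, 34200 and 17300 FPKM on day 10 against 15700, 21100 and 14200 on day 14 (log2 fold change −0.60, limma adjusted p = 0.839). *Phex* thus lay among the OB markers in its difference and *Pdpn* on the other side of 0. Once replicate 2 of day 14 was left out, limma gave an adjusted p under 0.05 for 3 of the 7 (*Dlx5*, *Sp7*, *Alpl*), where it did for 0.386% of all genes tested, and for neither *Pdpn* nor *Phex*. Chondrocyte markers had a median log2 fold change of −1.76, myeloid markers of 0.67, blood endothelial markers of 0.93, fibroblast markers of 1.14 and osteoclast markers of −0.31, with no adjusted p under 0.05 among them from limma. At an unadjusted p under 0.05, 2 chondrocyte markers were lower, and 1 blood endothelial, 1 fibroblast and 1 osteoclast marker were higher, where 4.40% of all genes tested were lower and 5.60% higher. When replicate 2 of day 14 was left out, which also separated *Pdpn* and *Phex*, 7 of the 10 chondrocyte markers were lower at that threshold, 8 were separated and 4 had an adjusted p under 0.05 from limma (*Col2a1*, *Acan*, *Col9a1*, *Col9a2*). In the same setting 8 of the 10 myeloid markers were higher with 6 separated, and 3 of the 6 fibroblast markers were higher with 2 separated, none with an adjusted p under 0.05 from limma. The shares of all genes tested were then 5.99% lower, 7.01% higher, 13.2% separated downwards and 15.3% separated upwards. Replicate 2 of day 14 had been singled out by its chondrocyte and myeloid sums. The counts of chondrocyte and myeloid markers without it follow in part from that choice and are no independent test. The part of these markers in the values of the 4 genes was not tested. Of the 7 osteoclast markers, 2 had positive and 5 negative log2 fold changes. *Ctsk* was separated upwards, at 403 to 425 FPKM on day 10 and at 574 to 614 FPKM on day 14. *Ocstamp* was separated downwards, at 0.294 to 0.727 FPKM on day 10 and at 0.162 to 0.25 FPKM on day 14. *Calcr*, *Ocstamp*, *Dcstamp* and *Atp6v0d2* had negative log2 fold changes and reached at most 2.61 FPKM in any sample. Of all genes tested, 7.59% were separated upwards and 6.67% downwards.

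**Figure D5:**
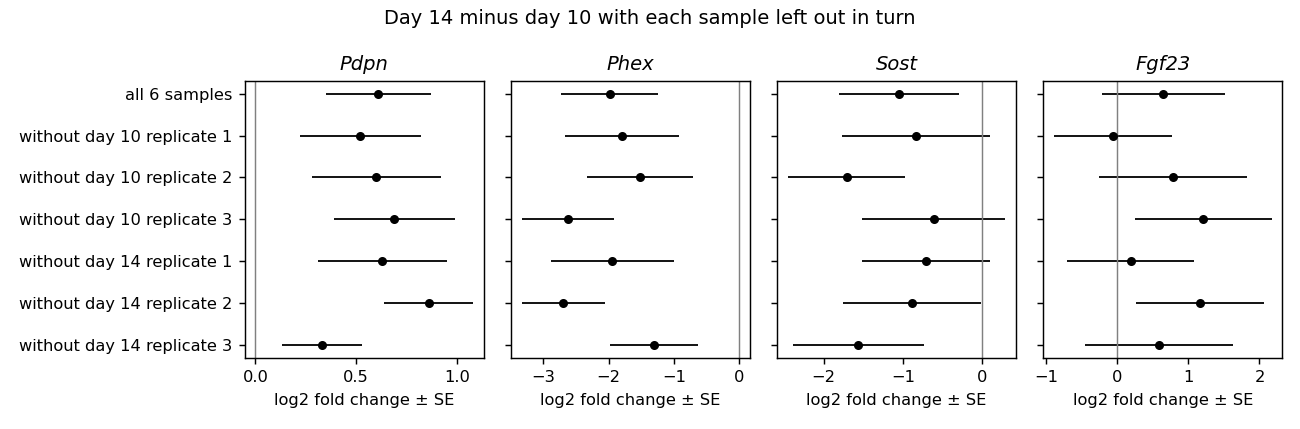
Log2 fold change of each of the 4 genes (horizontal axis, points ± standard error from limma) with all 6 samples and with each sample left out in turn. *Pdpn* stays between 0.33 and 0.86 and *Phex* between −2.69 and −1.30, *Sost* stays negative between −1.71 and −0.61, and *Fgf23* runs from −0.06 to 1.21.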

How the data were processed

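ECFP+ OBs of day 10 (n = 3) and day 14 (n = 3) were analysed, grouped by sample title. The authors made cDNA with a SMART-Seq Ultra Low Input kit, which does not mark strand, sequenced 75-base single-end reads and deposited FPKM per gene. Their processing notes name mm10, TopHat2 2.0.13, Bowtie2 2.2.3, SAMtools 0.1.19 and Cufflinks 2.2.1. The annotation and the handling of reads with several positions are not given in the sources used here. In 1 file, 25 symbols turned into dates were restored by position. Of the listed genes, *Adgre1*, *Ankh* and *Cnmd* were found under older or other symbols.

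Day 14 was compared with day 10 in limma 3.58.1 (R 4.3.3), with a mean-variance trend and the day as the only factor, on log2(FPKM + 0.1). The fit took the 19526 genes whose mean exceeded 0.1 FPKM, and p-values were adjusted over them by Benjamini-Hochberg. Single values were compared with exact permutation tests (SciPy 1.17.1). Depth was estimated from 1977 genes with 1 annotated transcript of 1500 to 8000 bases and values up to 0.3 FPKM. A scan set the fragment length at 220 bases. Between 74.7% and 79.7% of those values lay within 0.1 of a whole read. Read estimates for genes with several transcripts are approximate. Positions are from GENCODE vM21. The fit was tested on simulated data with planted changes larger than that of *Pdpn*, in genes with a mean above 1 FPKM. That test does not cover changes as small as that of *Pdpn* or genes as low as *Sost* and *Fgf23*.

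The members, lists and tests were chosen with earlier results of these data known. Named were the 4 genes, list genes that were called or had the smallest p, *Dmp1*, *Mepe*, *Col1a1*, *Sp7* and the 3 genes nearest in profile to each member with a mean of at least 1 FPKM, of which 1 is not reported here. The rule allowed any other list gene to be named with its value. RPM are estimated reads scaled to the estimated depth of the 3 samples of a day. Patterns in protein sequences were not analysed here. Alternatives were other pseudocounts, filters, scaling and variance model, a replicate block, and leaving out each sample. The counts of list genes without each sample were added after seeing the data.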

Additional observations from a re-analysis of the deposited data

How the results depend on the processing

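The log2 fold changes of *Pdpn*, *Phex* and *Sost* kept their sign in all 13 alternatives and none of them, nor *Fgf23*, had an adjusted p under 0.05 in any. Over these alternatives the adjusted p from limma was 0.155 to 0.997 for *Pdpn*, 0.126 to 0.997 for *Phex*, 0.538 to 0.997 for *Sost* and 0.686 to 0.998 for *Fgf23*. With each sample left out, the log2 fold change was 0.33 to 0.86 for *Pdpn*, −2.69 to −1.30 for *Phex*, −1.71 to −0.61 for *Sost* and −0.06 to 1.21 for *Fgf23*, whose sign turned without replicate 1 of day 10, where it is listed at 0. Requiring FPKM above 0.1 in every sample removed *Fgf23* and left 0 genes called among 12935, of which 1829 had an unadjusted p under 0.05. With each sample left out, 3 to 76 genes were called against 3 in all samples, the most without replicate 2 of day 14, and the cause was not tested.

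The ratio of *Phex* to *Dmp1* turned to 0.16 with a pseudocount of 1 and ran from −0.35 to 0.07 with each sample left out, turning sign without replicate 3 of day 10 (0.06), replicate 1 of day 14 (0.07) and replicate 2 of day 14 (0.03). The other ratios kept their sign, at −3.55 to −1.63 for *Phex* to *Pdpn*, −3.58 to −1.27 for *Dmp1* to *Pdpn*, 0.80 to 1.62 for *Pdpn* to *Col1a1* and −1.93 to −0.83 for *Phex* to *Col1a1* with each sample left out.

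The same-numbered samples of the days did not deviate together (r across genes 0.058, −0.00584 and 0.0887), and nothing in the labels ties them. A replicate block left 2 genes called, and the adjusted p from limma was 0.354 for *Pdpn* (log2 fold change 0.61), 0.126 for *Phex* (−1.98), 0.628 for *Sost* (−1.05) and 0.865 for *Fgf23* (0.65). The block changed no call of the 4 genes, and no ratio had p below 0.25 over the signs of the 3 pair differences, the smallest p they allow. For *Phex* the standard error was 0.24 with the block, against 0.74 without it. Its day 14 level was 0.182, 0.362 and 0.231 times that of day 10 in replicates 1, 2 and 3. The r across genes covers all genes tested and does not describe *Phex* or other single genes. With the block the standard error was also smaller for *Dmp1* (0.26 against 0.91), *Bglap2* (0.21 against 0.91) and *Cd34* (0.24 against 0.50). It was larger for *Col1a1* (0.82 against 0.69). *Sost* and *Fgf23* rest on 18 reads or fewer per sample, and their replicates also differ widely. With pseudocounts of 1 and 0.01, *Sost* was at −0.42 and −1.31 and *Fgf23* at 0.16 and 1.55.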
